A study of Mus musculus with 22 samples.

Results

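The cortex of the thymus is held together by cortical epithelial cells, and 9 genes that these cells are known for are described here: Foxn1, Dll4, Ccl25, Cxcl12, Il7, Psmb11, Prss16, Ctsl and Ly75. They were chosen by name, out of 24786 genes in the authors' table, and followed through the 9 whole-thymus libraries among the 22 samples of the series. All 9 passed the filter on low values, which kept 12568 genes.

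The thymus libraries fell into 3 groups of 3, labelled Aire-/-, TG Aire+/- and TG Aire-/-. All came from untreated C57BL/6 mice aged 2 to 4 weeks. The series text identifies the model as dnTGFβRII mice, which in the commonly used line carry a TGF-β receptor unable to signal, driven by the Cd4 promoter and so made in T cells and not in epithelium. The labels themselves write only TG and give neither the promoter nor the Aire allele. No thymus library came from a mouse with intact Aire and no transgene, so each comparison was between mutants. The libraries labelled TG Aire-/- and TG Aire+/- share the transgene and differ in the loss of the remaining Aire copy. Those labelled TG Aire-/- and Aire-/- share the Aire genotype and differ in the transgene. The labels do not say that replicates were separate animals, so p-values measure only the spread between these libraries, part of which may be technical.

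Cortical epithelium instructs the early steps of T cell development. Foxn1 is the transcription factor that epithelial progenitors need to become thymic epithelium. Dll4 is the Notch ligand that commits incoming progenitors to the T lineage, Ccl25 and Cxcl12 are chemokines that draw and retain them, and Il7 is their survival cytokine. Psmb11, Prss16 and Ctsl encode proteases that shape the peptides shown to double-positive thymocytes during positive selection. Ly75 encodes CD205, an endocytic receptor of cortical epithelium and of dendritic cells. In RNA from whole tissue, fewer cortical epithelial cells and less RNA per cell cannot be told apart.

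Values are RPKM, reads divided by gene length and by library size. Their sum differed between the thymus libraries, from 276205 to 376793, and a trend with transcript length is described below. Levels thus compare between genes and between libraries only roughly. The depth inferred from the smallest steps in the table was 22380000 to 29880000 reads per library, and 11574 to 12475 genes reached 1 RPKM. For Psmb11, 3 reads at that depth correspond to 0.0236 to 0.0316 RPKM, a floor that covers counting error only. Aire, the gene named in the genotypes, was read at 27.2, 29.5 and 15.95 RPKM in the libraries labelled Aire-/-, at 13.6, 10.9 and 10.2 in TG Aire+/- and at 20.2, 6.50 and 7.63 in TG Aire-/-. It was thus not lower in the libraries labelled Aire-/-. A value over the whole gene also counts exons that a knockout allele may leave in place, so it neither checks nor settles the labels, and the genotypes below are those of the labels.

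The first replicate labelled TG Aire-/- stood apart from the other 8 libraries in the cortical genes, and the differences of each of the 9 genes are given below with it and without it. Its level was less than 0.25 of the lowest of the other 8 libraries for 5 of the 9 genes, Psmb11, Prss16, Foxn1, Ccl25 and Ctsl. Over all genes tested, 2.06% (259 genes) were that low, and 1.69% (213 genes) were over 4 times the highest of the others, none of them among the 9. This fold limit was chosen after the values were seen. Summed over the 9 genes, the library held 123 RPKM, where the other 8 held 858 to 1020.2.

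Some other cortical genes were low in the same library, and some were high. Of 12 tested genes of a list of other cortical epithelial markers, 5 were below 0.25 of the lowest other library: Tbata, Krt8, Krt18, Pax1 and Snap91. Tbata, a thymic epithelial gene, was at 10.2 RPKM against 145 to 216 elsewhere, and Pax1, a transcription factor of the pharyngeal pouches, was at 4.28 against 27.5 to 55.6. Of the same list, Ctsb at 165 RPKM (45.2 to 61.0 elsewhere), Il15 at 14.3 (2.88 to 5.45) and Kitl at 5.57 (1.55 to 3.29) were above every other library. Epcam, the adhesion molecule carried by thymic epithelium of both cortex and medulla, was at 15.9 RPKM, inside the 11.1 to 20.2 of the other 8. Of 17 tested medullary epithelial markers, 0 were below 0.25 of the lowest other library and 0 were over 4 times the highest. Their median deviation from the median of the others was 0.67 in log2(RPKM + 1). Some were above every other library, such as Ccl22 at 123 RPKM (7.02 to 40.8) and Relb at 48.8 (7.90 to 19.5). Others were below, such as Krt17 at 33.9 (51.4 to 140) and Cldn4 at 6.48 (9.36 to 21.1). Aire, Fezf2 and Krt5 were inside the range of the other libraries.

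Markers of other cell types moved in that library too. Of 12 double-positive thymocyte markers 10 were below 0.25 of the lowest other library. Rag1, the recombinase of the T cell receptor genes, was at 0.571 RPKM against 158 to 614, and the list summed to 398 RPKM against 2614 to 3673. Over 4 times the highest other library were 4 of 8 tested B cell markers (list sum 276 RPKM against 27.5 to 71.0), 5 of 8 endothelial markers (176 against 44.8 to 70.0), 2 of 10 macrophage markers (1493 against 178 to 341) and 2 of 2 tested adipocyte markers (1088 against 70.4 to 137). None of these lists held a marker at 0 in every library, and 3 of the 8 listed adipocyte markers were at 0 in at least 1. The chemokines Ccl19 and Ccl21a, which guide cells towards the medulla, stood at 472 and 1556 RPKM, where the highest values elsewhere were 43.6 and 313. The part of these other cells in the low cortical values was not tested. With the double-positive thymocyte markers this far below the other libraries, whether the library is mainly thymus tissue, as labelled, cannot be told from these files.

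**Figure D1:**
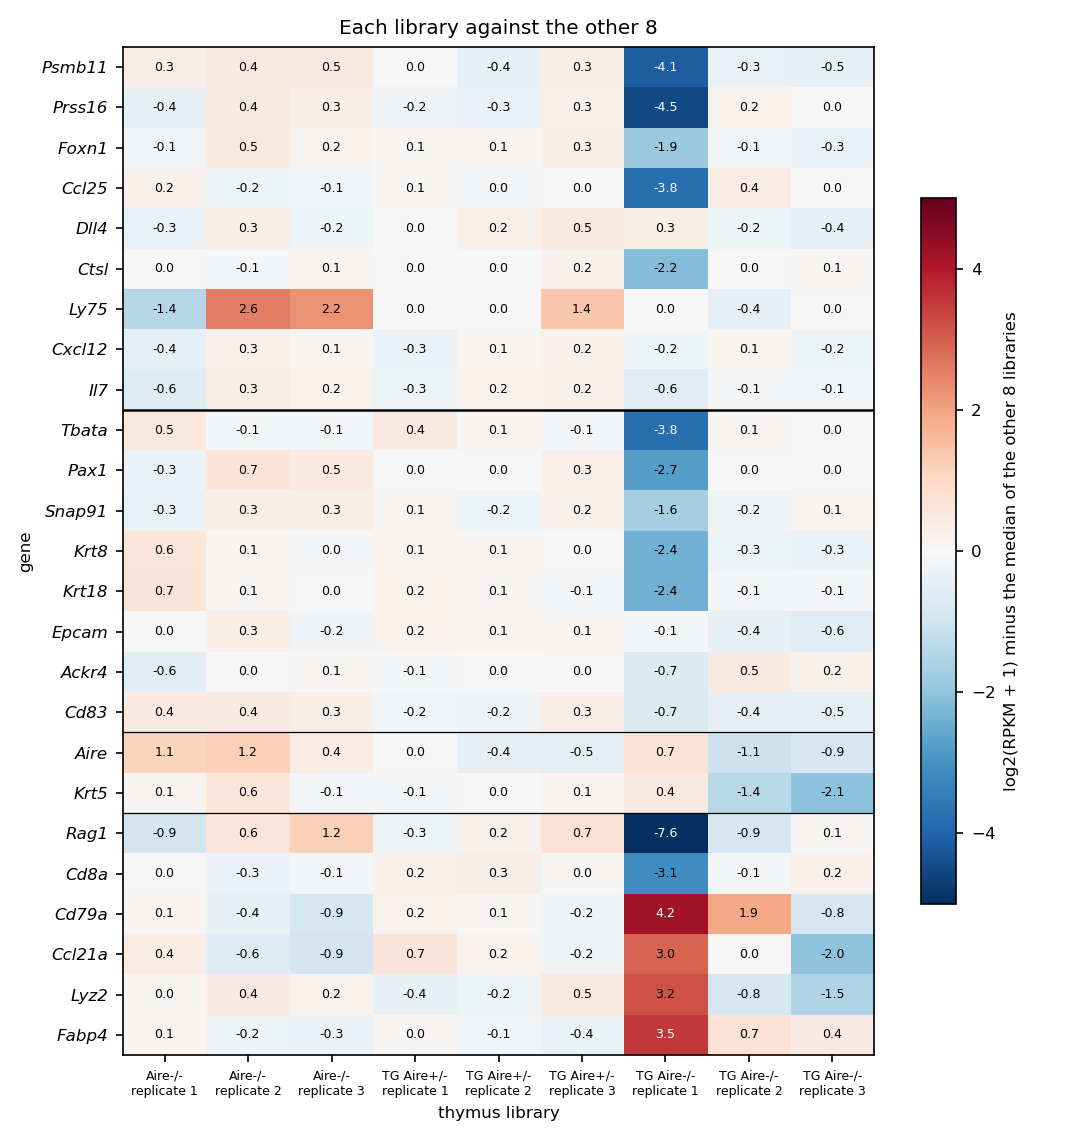
Deviation of each thymus library (columns) from the median of the other 8, in log2(RPKM + 1), for the 9 cortical genes (top block), other epithelial genes, the medullary genes Aire and Krt5, and thymocyte, B cell, chemokine, macrophage and adipocyte genes (bottom block). The first replicate labelled TG Aire-/- is low for Psmb11, Prss16, Foxn1, Ccl25 and Ctsl and for Rag1 and Cd8a, and high for Cd79a, Ccl21a, Lyz2 and Fabp4, while Epcam stays near 0.

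Foxn1 lies at chr11:78357577-78386558 on the minus strand of GRCm38. Its level was 5.81, 9.36 and 7.02 RPKM in Aire-/-, 6.43, 6.55 and 7.67 in TG Aire+/- and 1.05, 5.80 and 5.04 in TG Aire-/-. All 3 libraries labelled TG Aire-/- were below every library of the other groups, the closest pair being 5.80 against 5.81 RPKM. The difference was -0.84 on the log2(RPKM + 1) scale (SE 0.408) from TG Aire+/- and -0.92 (SE 0.408) from Aire-/-, with Benjamini-Hochberg adjusted p of 0.892 and 0.610 in limma, so neither passed the threshold of 0.05. Groups that did not overlap, lower in TG Aire-/-, were found for 7.88% of all genes tested against TG Aire+/- and for 6.42% against Aire-/-. Without the first TG Aire-/- replicate the differences were -0.30 and -0.37, the groups still did not overlap, and 19.7% and 15.9% of all genes were then lower without overlap.

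Foxn1 protein is known to bind DNA with the core letters GACGC. These letters, or their reverse complement GCGTC, were searched for on both strands from 250 bases before to 50 bases after the RefSeq start in the GRCm38.p6 promoter table, which held 8 promoters of 7 of the 9 genes (not Prss16 or Il7). They were found for 3 genes, Psmb11, Ccl25 and Cxcl12, and in 27.2% of all 32851 promoters (22.6% upstream of the start). The matches upstream are shown because Psmb11 and Ccl25 are textbook Foxn1 targets, with the core letters in capitals and 5′ to 3′ on the strand of the gene, which is plus in each case. A match in this window is a description of the letters and not a binding site.
Psmb11, chr14:54625228-54625272, 62 bases before the start: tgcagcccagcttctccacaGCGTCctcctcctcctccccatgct
Psmb11, chr14:54625060-54625095, 239 bases before the start: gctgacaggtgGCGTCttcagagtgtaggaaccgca
Ccl25, chr8:4325134-4325178, 56 bases before the start: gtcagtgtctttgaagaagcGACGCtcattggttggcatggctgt
Cxcl12, chr6:117168453-117168497, 62 bases before the start: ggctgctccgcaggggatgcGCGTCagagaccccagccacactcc
Psmb11 and Ccl25 were among the 5 low genes of the first TG Aire-/- replicate, and Cxcl12 was not. Foxn1 and Ctsl were also among the low genes and had 0 matches, and Prss16 was not searched. Dll4 and Ly75, not among the low genes, had 0 matches too. Whether the letters go with the low values was not tested.

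Of 12 tested genes of a list of Foxn1 regulators and partners (among them the ligands Wnt4 and Wnt5b and the patterning factors Pax1, Pax9, Eya1 and Hoxa3, while the ligands Bmp4, Fgf7 and Fgf10 did not pass the filter on low values), 0 passed the test in either direction in the 3 comparisons, while 11 were lower and 1 was higher in TG Aire-/- than in TG Aire+/-, with a median difference of -0.31 beside -0.14 over all genes tested. Without the first TG Aire-/- replicate 10 were lower, with a median of -0.22 beside -0.11, and again 0 passed. Pax1 alone of this list was below 0.25 of the lowest other library in the first TG Aire-/- replicate. Pax9, its paralog, was at 1.28 RPKM there and at 1.45 to 2.84 in the other 8.

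Among the signals sent to thymocytes, Dll4 (chr2:119325784-119335962, plus strand) was read at 2.94, 4.54 and 3.25 RPKM in Aire-/-, at 3.62, 4.24 and 5.14 in TG Aire+/- and at 4.42, 3.24 and 2.69 in TG Aire-/-. The first TG Aire-/- replicate was the highest of its group here, and the groups overlapped. Dll4 differed by -0.27 (SE 0.233) between TG Aire-/- and TG Aire+/- and by -0.04 (SE 0.233) between TG Aire-/- and Aire-/-, with limma adjusted p of 0.892 and 0.957. Without that replicate they were -0.42 and -0.19, with both TG Aire-/- values below all TG Aire+/- values, as for 19.7% of all genes tested. The annotation places Gm14207 across Dll4 on the opposite strand. Whether the authors' counting used strand is not given in the sources used here, so reads of the pair cannot be told apart, and Gm14207 was listed at 1.97 to 7.54 RPKM.

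Ccl25, the chemokine (chr8:4325210-4360020, plus strand), was at 326, 244 and 260.1 RPKM in Aire-/-, at 291, 277 and 284 in TG Aire+/- and at 19.8, 358 and 288 in TG Aire-/-. The TG Aire-/- group thus held both the lowest and the highest value of the 9. Its difference was -1.14 (SE 0.872) from TG Aire+/- and -1.09 (SE 0.872) from Aire-/-, with limma adjusted p of 0.892 and 0.678. Without the first TG Aire-/- replicate these became 0.18 and 0.22, a change of sign. The 3 TG Aire+/- libraries agree within a coefficient of variation of 2.54%, the smallest spread of any of the 9 genes in any group. Ccl25 overlaps Elavl1 on the opposite strand, which was at 12.8 to 18.9 RPKM.

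Cxcl12, the ligand of Cxcr4 (chr6:117168535-117181367, plus strand), was at 17.5, 26.3 and 24.0 RPKM in Aire-/-, at 19.4, 23.4 and 25.3 in TG Aire+/- and at 20.2, 24.2 and 19.9 in TG Aire-/-. Its range over all 9 libraries, 1.51-fold from lowest to highest, was the smallest of the 9 genes, and the first TG Aire-/- replicate lay within the others. Differences between groups were -0.08, -0.06 and 0.02 (SE 0.208), for TG Aire-/- against TG Aire+/-, TG Aire-/- against Aire-/- and TG Aire+/- against Aire-/-. The limma adjusted p was 0.948, 0.933 and 1.0, and without that replicate the first pair of differences was -0.04 and -0.02.

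Il7, the cytokine (chr3:7569994-7613760, minus strand), was at 3.51, 7.05 and 6.17 RPKM in Aire-/-, at 4.66, 6.25 and 6.25 in TG Aire+/- and at 3.63, 5.41 and 5.25 in TG Aire-/-. The lowest value in each group was that of its first replicate, and the groups overlapped. Its differences were -0.23 and -0.16 (SE 0.264) for TG Aire-/- against TG Aire+/- and Aire-/-, with limma adjusted p of 0.892 and 0.830, and -0.08 and -0.01 without the first TG Aire-/- replicate. Il7 and Cxcl12 are also made by fibroblasts, and the fibroblast list summed to 324 RPKM in the first TG Aire-/- replicate against 58.4 to 170.1 elsewhere. Dcn alone held 152 RPKM of that sum, and 0 of 9 tested markers of the list were over 4 times the highest other library. Col1a1 and Col1a2 were above every other library, while Col3a1, Lum, Postn and Dpp4 were inside their range. The part of fibroblasts in the Il7 and Cxcl12 values was not tested.

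The receptors of these signals sit on the thymocytes. Of 10 tested receptors and partners 0 passed the test in any of the 3 comparisons, with or without the first TG Aire-/- replicate. Ccr9, the receptor of Ccl25, was at 7.32 RPKM in the first TG Aire-/- replicate against 96.7 to 212 in the other 8, and Cxcr4 was at 38.4 against 88.0 to 195. Il7r went the other way in that library, at 47.4 RPKM against 5.75 to 14.1. Notch1, which receives the Dll4 signal, was at 8.31 RPKM there and at 14.7 to 41.7 elsewhere. Of 9 tested Notch target genes 0 passed the test in any comparison, with or without that library. Hes1, the classic one, was at 6.51 RPKM in that library, inside the 3.31 to 8.48 of the others. Ptcra, a Notch target that is also on the double-positive thymocyte list, was far below them, at 0.157 RPKM against 14.8 to 39.9. Over the 9 targets, the median deviation of that library from the median of the others was 0.0074 in log2(RPKM + 1).

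**Figure D2:**
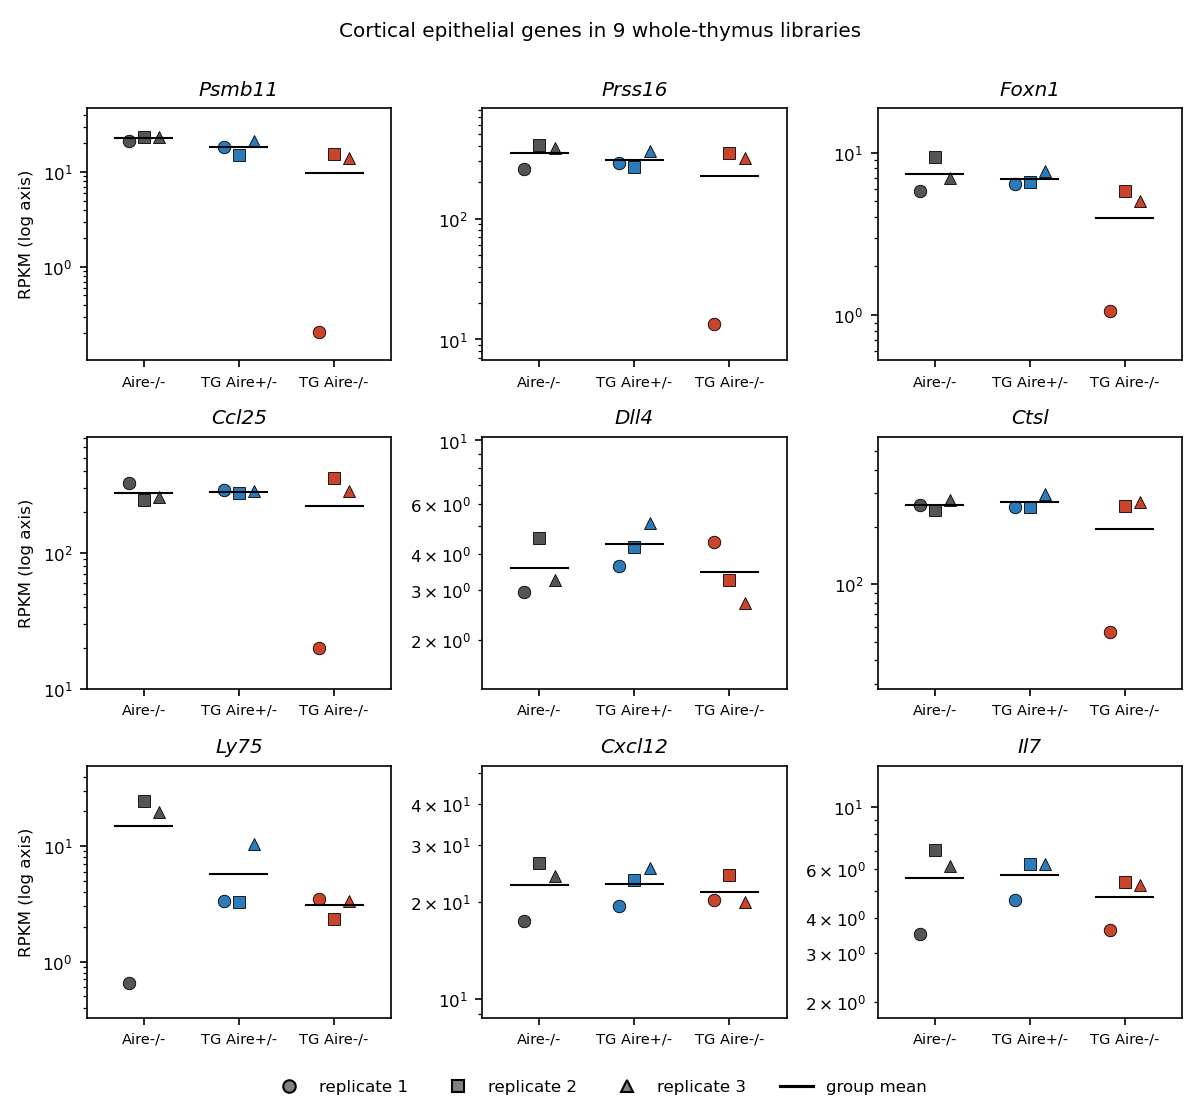
RPKM (log axes, one panel per gene) of the 9 cortical epithelial genes in the thymus libraries labelled Aire-/-, TG Aire+/- and TG Aire-/-, with replicate number as marker shape and the group mean of 3 libraries as a bar. In Psmb11, Prss16, Foxn1, Ccl25 and Ctsl the first TG Aire-/- replicate lies far below the other 8 points, and in Ly75 the lowest point is the first Aire-/- replicate.

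Of the genes for making selecting peptides, Psmb11 showed the widest gap. It encodes β5t, the catalytic subunit that turns the proteasome of cortical epithelium into the thymoproteasome, and lies at chr14:54621433-54629556 on the plus strand. It was at 21.2, 23.3 and 23.5 RPKM in Aire-/-, at 18.5, 15.1 and 21.3 in TG Aire+/- and at 0.207, 15.4 and 14.1 in TG Aire-/-. The value of 0.207 was 96.0-fold below the median of the other 8 libraries and above the floor of 3 reads. The other TG Aire-/- libraries were also below all 3 labelled Aire-/-, and 1 of them lay within the range of TG Aire+/-. Of all genes tested, 6.42% were lower in TG Aire-/- than in Aire-/- without overlap, and 15.9% once the first TG Aire-/- replicate was left out. The difference was -1.52 (SE 0.812) from TG Aire+/- and -1.82 (SE 0.812) from Aire-/-, with limma adjusted p of 0.892 and 0.610. Without the first TG Aire-/- replicate it was -0.28 and -0.59, with adjusted p of 0.954 and 0.336.

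The other proteasome genes did not share the low value of Psmb11. Psmb5, the constitutive subunit whose place β5t takes, was at 100.5 RPKM in the first TG Aire-/- replicate and at 59.4 to 130.5 elsewhere, and its immunoproteasome counterpart Psmb8 was at 261 against 134 to 278. Psmb9 was at 184 RPKM, above the 62.0 to 128 of the others, and Psmb10 was at 133 within 71.7 to 175. Over the list of 20 proteasome genes, 0 passed the test in any comparison, 0 were below 0.25 of the lowest other library, and the median of their differences from TG Aire+/- was -0.04 in TG Aire-/-, beside -0.14 over all genes. With the first TG Aire-/- replicate left out 0 passed and that median was -0.14, beside -0.11.

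Prss16, the thymus-specific serine protease (chr13:22002173-22009742, minus strand), was at 257, 411 and 384 RPKM in Aire-/-, at 291, 267 and 362 in TG Aire+/- and at 13.4, 347 and 317 in TG Aire-/-. The low library was 24.7-fold below the median of the others, and the remaining 2 TG Aire-/- values lay within the range of both other groups. Its differences were -1.38 from TG Aire+/- and -1.56 from Aire-/- (SE 1.0), with limma adjusted p of 0.892 and 0.636. Without the first TG Aire-/- replicate they were 0.12 and -0.05.

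Ctsl, the lysosomal protease cathepsin L (chr13:64359337-64370890, minus strand), was at 261, 245 and 275 RPKM in Aire-/-, at 256, 255 and 296 in TG Aire+/- and at 56.3, 258 and 269.8 in TG Aire-/-. Among the other 8 libraries it varied by 1.21-fold, the least of the 9 genes, and the first TG Aire-/- replicate was 4.61-fold below their median. Its differences were -0.76 and -0.72 (SE 0.514), with limma adjusted p of 0.892 and 0.656, and became -0.02 and 0.02 without that replicate. A pair of fellow lysosomal proteases went the opposite way in that library. Ctss, the cathepsin of antigen-presenting blood cells, was at 225 RPKM against 14.4 to 37.4, and Ctsb was at 165 against 45.2 to 61.0. Of 12 tested genes of class II processing 0 passed the test in any comparison, with or without that library.

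Ly75 (chr2:60292103-60383303, minus strand) varied the most of the 9 genes once the first TG Aire-/- replicate is set aside, and did so within the Aire-/- group. It was at 0.649, 24.8 and 19.7 RPKM in Aire-/-, at 3.37, 3.31 and 10.5 in TG Aire+/- and at 3.47, 2.36 and 3.35 in TG Aire-/-. The lowest and the highest of all 9 values were both labelled Aire-/-, 38.2-fold apart, and all groups overlapped. Over all genes tested, 5.37% (675 genes) spread over more than 4-fold within that group. The differences were -0.58 from TG Aire+/- and -1.25 from Aire-/- (SE 0.890) for TG Aire-/-, with limma adjusted p of 0.902 and 0.653, and -0.67 for TG Aire+/- against Aire-/-. The first TG Aire-/- replicate, low in 5 of the 9 genes, was near the middle of the Ly75 values, and without it the differences were -0.65 and -1.33. Dendritic cells carry Ly75 too, and their marker list summed to 185 RPKM in that library against 16.1 to 64.1 elsewhere. Most of that sum was Ccr7 at 130 RPKM, a gene also on the mature T cell list, and Batf3 at 37.1. Itgax and Flt3 were above every other library too, while Xcr1 and Siglech were inside their range and Cd209a was listed at 0. The part of dendritic cells in the Ly75 values was not tested.

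A trend with transcript length separated the same libraries. For the 12393 tested genes with an annotated length, the median deviation from the 9-library mean was taken for genes over 8 kilobases minus that for genes up to 1 kilobase. This trend was -0.84, 0.88 and 0.79 in Aire-/-, it was -0.32, -0.13 and 0.35 in TG Aire+/-, and the TG Aire-/- libraries had -0.44, -0.26 and -0.05. Ly75 has the longest annotated transcript of the 9 genes, 6901 bases, and its highest values were in the 3 libraries with a positive trend, its lowest in the library with the most negative one. Ctsl, the next longest at 6168 bases, was at 261, 245 and 275 RPKM in the Aire-/- libraries and did not follow that order. The part of the length trend in the Ly75 values was not tested. The labels name both Illumina and BGI library protocols without saying which library had which. With a smooth curve of the trend subtracted from each library, Ly75 differed by -0.36 from TG Aire+/- and by -0.93 from Aire-/- in TG Aire-/- (SE 0.766), where it had been -0.58 and -1.25, and none of the 9 genes passed the test in any comparison.

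**Figure D3:**
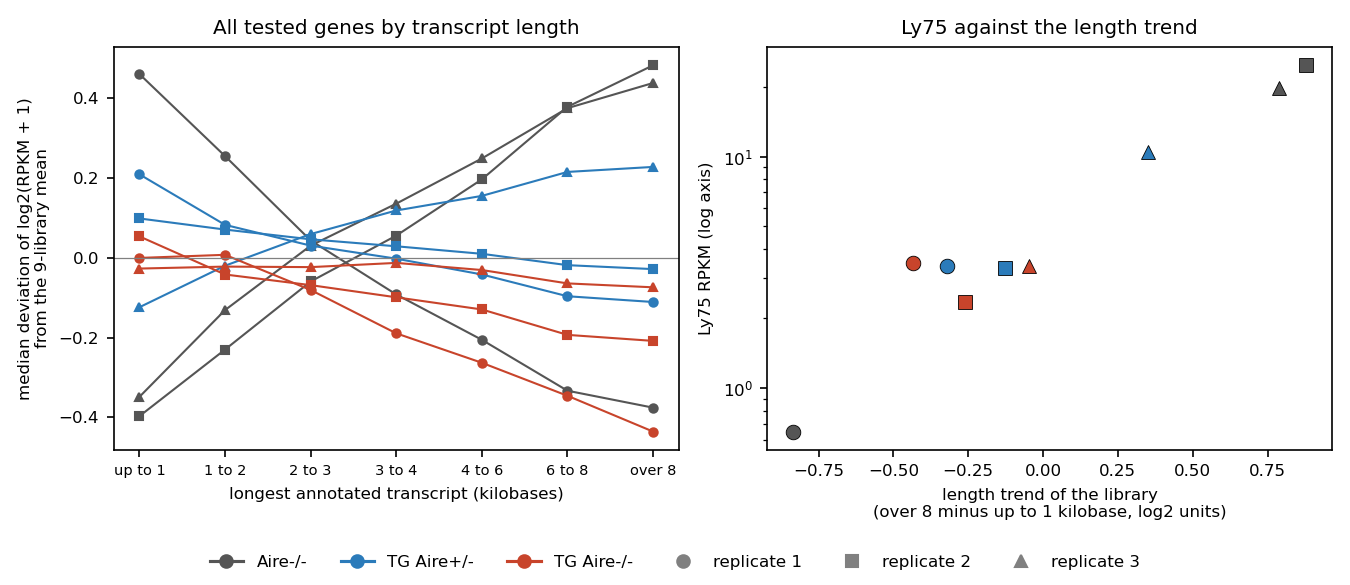
Left, median deviation of log2(RPKM + 1) from the 9-library mean for genes binned by longest annotated transcript (kilobases), one line per thymus library. Right, Ly75 RPKM (log axis) against each library's difference between the longest and the shortest bin; the 2 highest Ly75 values belong to the Aire-/- libraries at 0.88 and 0.79 and the lowest to the Aire-/- library at -0.84.

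None of the 9 genes passed the test in any of the 3 comparisons with all libraries in limma. Between TG Aire-/- and TG Aire+/- 0 of 9 passed, where 0% of all 12568 genes passed in either direction and 2.22% (279 genes) had an unadjusted p below 0.05, none of them among the 9. All 9 estimates were lower in TG Aire-/-, with a median of -0.76 beside -0.14 over all genes, except that Cxcl12 was higher (0.04 and 0.08) once libraries were scaled by upper quartile or by median of ratios, and higher by 0.12 once the trend with transcript length was subtracted. With libraries weighted by their agreement, Prss16 (0.14) and Ccl25 (0.13) were higher instead. Between TG Aire-/- and Aire-/- 0 of 9 passed, where 0.0159% of all genes (2 genes) fell and 0% rose. Psmb11 and Foxn1 were below 0.05 before adjustment in limma, as were 7.55% of all genes. All 9 estimates were lower in TG Aire-/-, with a median of -0.92 beside -0.11, except that Cxcl12 and Dll4 were higher by up to 0.07 under those scalings. They were also higher with the length trend subtracted (0.21 and 0.11), as was Il7 (0.06), and Ccl25 was higher with weighted libraries (0.25). Median of ratios scaling moved the median of all genes to 0.01 and 0.00 in these comparisons. The comparisons share the TG Aire-/- libraries.

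Leaving out the first TG Aire-/- replicate brought these medians near 0. They became -0.08 from TG Aire+/- and -0.05 from Aire-/-, with 7 of 9 estimates lower in each case, beside medians over all genes of -0.11 and -0.09. Again 0 of 9 passed, where 0.403% (50 genes) fell against TG Aire+/- and 0.153% (19 genes) fell against Aire-/-, and in TG Aire+/- against Aire-/- 0.0322% (4 genes) rose. Among those that fell against TG Aire+/- were 4 of 17 medullary epithelial markers, including Ccl22, Fezf2 and Krt5, and the medullary list had a median of -0.73. That 4 medullary genes passed and 0 cortical ones did is no test of a difference between the lists.

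Between TG Aire+/- and Aire-/- the median difference of the cortical genes was 0.02, beside 0.01 over all genes. Not every gene differed least in this comparison. Ly75, at -0.67 here, was at -0.58 between TG Aire-/- and TG Aire+/-, and Dll4, at 0.23 here, was at -0.04 between TG Aire-/- and Aire-/-. The medians of those other comparisons depended on the first TG Aire-/- replicate, as given above. All 9 genes overlapped between the groups, where 2.26% of all genes were lower and 5.49% higher without overlap. The largest difference was that of Ly75, and the other 8 ranged from -0.31 for Psmb11 to 0.23 for Dll4. In limma 0 of 9 passed, where 0% of all genes passed in either direction and 0.939% (118 genes) had an unadjusted p below 0.05. The SE of these differences ran from 0.208 to 1.0, so missing the threshold does not show that the groups were alike.

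The first replicate labelled Aire-/- also mattered. When it and the first TG Aire-/- replicate were both left out, a choice made after the data were seen, Psmb11 fell by 0.64 (limma adjusted p = 0.0323) and Ly75 fell by 2.60 (adjusted p = 0.0110) in TG Aire-/- against Aire-/-, but 27.3% of all genes (3361 of 12326) then passed in that comparison. Ly75 also fell by 1.94 in TG Aire+/- against Aire-/- (adjusted p = 0.0481), where 1.74% of all genes passed. Each of these comparisons then rests on 2 Aire-/- libraries. Libraries weighted by their agreement, with the least weight on these same first replicates, gave Ly75 at -2.50 and -2.16 against Aire-/- (limma adjusted p of 0.00308 and 0.00197), where 41.3% and 40.1% of all genes passed. The most weight, 9.09, was on the second TG Aire+/- replicate, beside 1.26 and 0.79 for the rest of its group. Its Ly75 value of 3.31 RPKM was the lowest of that group, so the TG Aire+/- side of the -2.16 rests largely on 1 library.

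**Figure D4:**
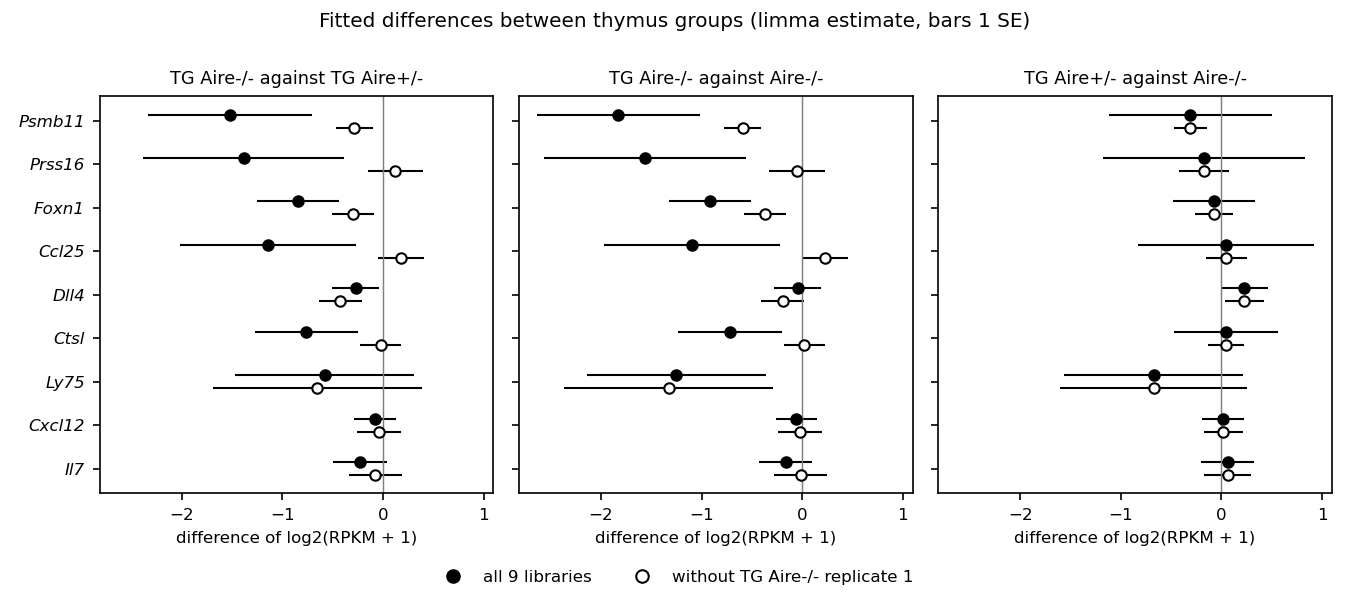
Fitted difference of log2(RPKM + 1) between groups for each of the 9 genes, from limma, with bars of 1 SE, for all 9 libraries (filled) and without the first TG Aire-/- replicate (open). The estimates for Psmb11, Prss16, Ccl25 and Ctsl move towards or past 0 when that library is left out, while those for Dll4, Ly75, Cxcl12 and Il7 move little.

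Levels relative to the epithelium were described as the log2 ratio of each gene to the geometric mean of Epcam, Krt8 and Krt18 within a library. The median ratio of the 9 genes was -2.29 ± 0.48 in Aire-/-, while TG Aire+/- had -2.47 ± 0.29 and TG Aire-/- had -2.56 ± 0.22 (SD, n = 3). The last value was -2.43 without the first replicate. Against Epcam alone the medians were 0.34 ± 0.28, 0.01 ± 0.26 and -0.42 ± 1.23. Against Epcam, Krt8 and Krt18 together, the genes went both ways in the first TG Aire-/- replicate. Psmb11 was at -7.23 there and between -2.73 and -1.96 in the other 8 libraries. Prss16 was also below the others, at -1.21 against 1.03 to 2.08, as were Ccl25 at -0.64 against 1.23 to 2.13, Foxn1 at -4.88 against -4.43 to -3.48 and Ctsl at 0.86 against 1.06 to 1.81. Dll4 was above them at -2.81 against -5.42 to -4.21, and so were Cxcl12 at -0.62 against -2.85 to -1.76 and Il7 at -3.09 against -5.16 to -3.88. Krt8 and Krt18 were themselves low in that library, at 38.1 and 49.2 RPKM against lowest values of 167 and 247 elsewhere. For the low genes the ratio to them is thus less far from the others than the level itself. Against Krt8 and Krt18 alone Foxn1 was inside the other libraries, at -5.36 against -5.90 to -4.66. So was Ctsl at 0.38 against -0.41 to 0.42. With these 2 keratins Psmb11, Prss16 and Ccl25 stayed below all others, and Dll4, Cxcl12 and Il7 above. Against Epcam alone Psmb11 was at -6.26 in that library and between -0.25 and 0.65 elsewhere. Prss16, Ccl25, Foxn1 and Ctsl were also below all other libraries with that reference. Dll4, however, was then inside the others, at -1.84 against -2.48 to -1.77. So were Cxcl12 at 0.35 against 0.07 to 0.89 and Il7 at -2.13 against -2.23 to -1.08. Epcam is carried by medullary cells too, so neither reference measures cortical cells alone.

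**Figure D5:**
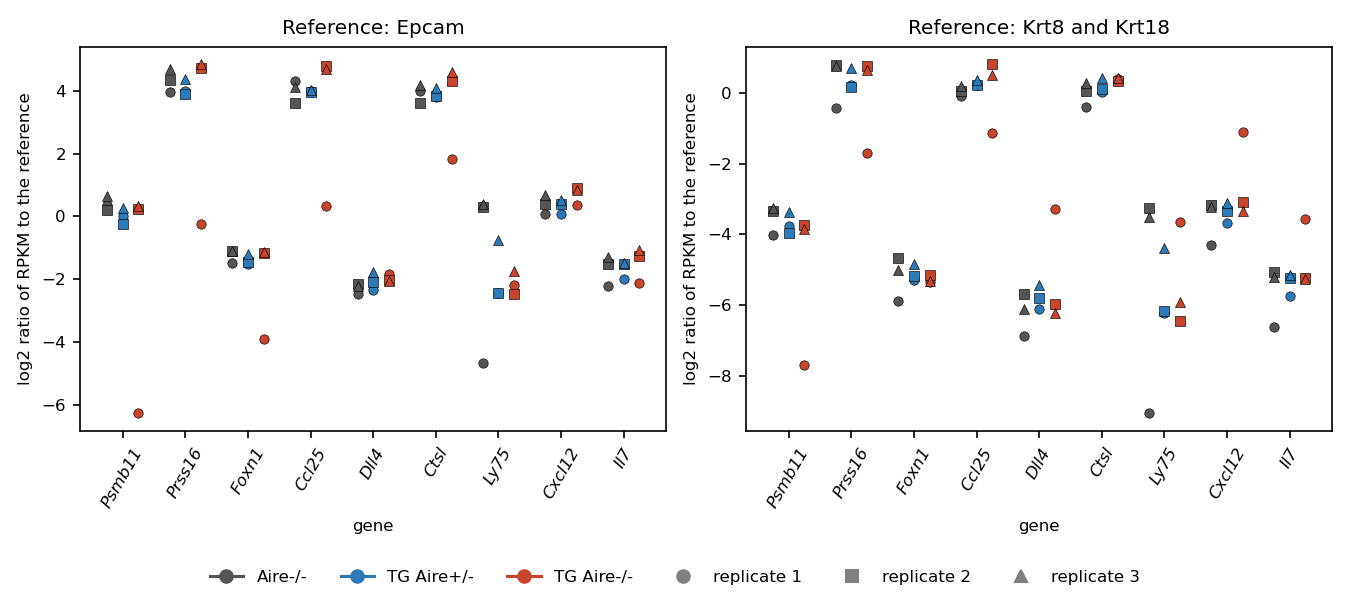
Log2 ratio of each of the 9 genes to Epcam (left) and to the geometric mean of Krt8 and Krt18 (right) in each thymus library, coloured by group with replicate number as marker shape. The Psmb11 point of the first TG Aire-/- replicate is at -6.26 on the left and -7.71 on the right, below all other libraries in both.

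The 9 genes did not form 1 pattern. Over the 9 libraries, Pearson's r on log2(RPKM + 1) among Psmb11, Prss16, Foxn1, Ccl25 and Ctsl lay between 0.90 and 0.99, and all of these share the low first TG Aire-/- replicate. Over the other 8 libraries Ccl25 had r of -0.46 with Psmb11, -0.45 with Prss16 and -0.68 with Foxn1. Foxn1 kept 0.71 with Psmb11 and 0.62 with Prss16, and Ctsl lay between -0.09 and 0.19 with the rest of these genes. Cxcl12 and Il7 had r of 0.88 over 9 libraries and 0.93 over 8. All these values are descriptions over libraries that also differ in depth and in the length trend.

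The genes most like each of the 9, taken as the highest r over the 9 libraries among all genes tested, were led for most by the same low library. Psmb11 was most like Slc46a2 (r = 0.99) and Ociad2, and over 8 libraries r with Slc46a2 was 0.86. Foxn1 was most like Arhgef16 (0.99, and 0.95 over 8 libraries), and Ctsl was most like Dntt, the nucleotide-adding polymerase of thymocytes (1.0, and 0.85). Ccl25 was most like Plxdc1 and Rhoh, and Prss16 most like E2f2 and Gpr162. Dll4 was most like Plet1 (0.92, and 0.94 over 8 libraries), Ly75 most like Ankrd52 (0.99, and 1.0) and Dnajc16, Cxcl12 most like Pigg and 2010109I03Rik, and Il7 most like Snx13 and Manea.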

How the data were processed

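RNA of whole mouse thymus was sequenced in bulk. The authors deposited RPKM values per gene, per the labels. The submitters' processing notes list STAR 2.5.2b with mm10. How reads were counted, on which annotation and by which strand setting, is not given in the sources used here. Low values allowed depth to be inferred, but only 44.4% to 49.1% of them were whole reads within 0.1 read, so reads were not recovered and no count test was run. Groups and replicate numbers came from sample titles.

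All 9 libraries entered 1 fit in limma 3.58.1 under R 4.3.3 (two-sided eBayes, trend allowed) of log2(RPKM + 1) values, without covariates. Adding 1 makes the changes of low genes look smaller. Genes needed 1 RPKM in at least 3 of 9 libraries. Benjamini-Hochberg adjustment ran over all genes tested in a comparison, with a threshold of 0.05. A permutation test of 3 against 3 cannot go below p = 0.10. The procedure was tested on simulated data. Positions and transcript lengths are from GENCODE vM21 on GRCm38, the assembly of mm10, and promoters from RefSeq.

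The members and gene lists were chosen with earlier results of these data known. Named genes were the 9 members, their receptors, the proteasome paralogs, list genes past the threshold or else the first of each list, and the 2 most correlated genes per member. A few genes that this rule names are left out. Whether replicate numbers pair the libraries is not stated in the labels and was not settled here. Of 9 same-numbered pairs 4 correlated above 0.1 in their deviations. Between Aire-/- and TG Aire+/- r was 0.67, -0.18 and 0.77 for replicates 1, 2 and 3. A pair with different numbers reached 0.55. Alternatives were another pseudocount, other filters and scalings, no trend, only the groups compared, a replicate block, sample weights, a length correction and each library left out.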

Additional observations from a re-analysis of the deposited data

Results flagged for a closer look

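In the livers of the second batch, a table normalised separately from thymus, 4 of the 9 genes were higher in both libraries labelled TG Aire-/- than in both labelled Aire+/+. These livers enter no comparison above, and with 2 libraries a group the differences were not tested. Of 18720 genes above 0 in at least 1 of these 4 livers, 56.9% were higher in both TG Aire-/- livers without overlap and 12.6% lower, so 4 of 9 is not above the share of all genes. Il7 was lower without overlap, at 0.104 and 0.220 RPKM against 0.310 and 0.546, as was Cxcl12. Prss16 averaged 0.586 RPKM (0.456 and 0.717) and was listed at 0 in both Aire+/+ livers, and it was at 0.0417 and 0.0365 in CD8-depleted TG Aire-/- livers. Dll4 averaged 9.65 RPKM (4.52 and 14.8) against 0.642 and 0.450, with 0.400 and 0.272 after depletion. Ctsl averaged 209 RPKM (185 and 234) against 129 and 93.7, with 134 and 125 after depletion. Ly75 averaged 1.87 RPKM (0.963 and 2.77) against 0.454 and 0.647, with 0.730 and 0.545 after depletion.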

How the results depend on the processing

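Over all alternatives, 559 estimates of the 9 genes kept their direction and their side of the threshold, 54 changed sign and 5 passed the threshold, those being Ly75 and Psmb11 without both first replicates (given above) and Ly75 with sample weights, also given above. The cause of these changes was not tested. Several alternatives can change the p-value of an estimate but not the estimate itself. Among them are no trend, the other filters, only the 2 groups, the replicate block and a left-out library of the group not compared. The count of 559 thus overstates how stable the directions were. The count of all genes that fell in TG Aire-/- against Aire-/- was 2, and it was 0 with no filter, either scaling, only the 2 groups, the replicate block or the length correction (with or without the block). Leaving out 1 library gave 0 to 19, against TG Aire+/- it gave 0 to 50, and the genes higher in TG Aire+/- than in Aire-/- went from 0 to 4; the upper ends came without the first TG Aire-/- replicate. With the replicate block 0 of the 9 genes passed in any comparison, and the labels do not say what libraries of the same number share. Without a filter, 56 genes were called lower and 1 higher in TG Aire-/- than in TG Aire+/-, and 40 higher and 1 lower in TG Aire+/- than in Aire-/-. Sample weights (by genes, since the default method could not be fitted to convergence) gave 189 falling and 30 rising, 3515 and 1670, and 2846 and 2198, for TG Aire-/- against TG Aire+/-, for TG Aire-/- against Aire-/- and for TG Aire+/- against Aire-/-. Without both first replicates the counts in that order were 88 falling, 2305 and 1056, and 125 and 89. The length correction without the first TG Aire-/- replicate, like the other length corrections chosen after seeing the data, gave 21 and 26 falling in the first 2 comparisons. The median ratio to the epithelial reference moved with the reference, as its construction sets: 0.344, 0.0119 and -0.424 with Epcam alone and -3.61, -3.71 and -3.63 with Krt8 and Krt18, in the order of the text above. Signs changed as follows. For TG Aire-/- against TG Aire+/-, Ccl25 was at 0.132 with weights, 0.177 without the first TG Aire-/- replicate or both first replicates, and 0.264 with length correction without the first TG Aire-/- replicate, and Prss16 at 0.141, 0.125 and 0.219 in that order. Cxcl12 was at 0.0351 (upper quartile), 0.0833 (median of ratios), 0.121 (length, with or without block), 0.103 (length without that replicate) and 0.00519 (without the third TG Aire+/- replicate), and that length correction put Ctsl at 0.123 and Il7 at 0.0480. For TG Aire-/- against Aire-/-, Ccl25 was at 0.255 (weights), 0.225 (without the first TG Aire-/- replicate), 0.349 (without both) and 0.275 (length without that replicate), and Ctsl at 0.0211, 0.0230 and 0.253 for the last 3 of these. Cxcl12 was at 0.0409 (upper quartile), 0.0712 (median of ratios), 0.210 (length), 0.191 (length without that replicate) and 0.0588 (without the second Aire-/- replicate). Dll4 was at 0.0369, 0.0634 and 0.105 for the first 3 of these, 0.103 without the second Aire-/- and 0.0827 without the third TG Aire-/- replicate. Il7 was at 0.0578 (length), 0.157 (length without that replicate) and 0.00306 (without the second Aire-/-), and Prss16 at 0.0266 (length without that replicate). For TG Aire+/- against Aire-/-, Cxcl12 was at -0.0121 (median of ratios), -0.0887 (weights), -0.148 (without the first Aire-/- replicate, or both first replicates), -0.00622 and -0.0618 (without the second and the third TG Aire+/-). Il7 was at -0.0655 (weights) and -0.188 (without the first Aire-/-, or both), and Ctsl at -0.0291 (weights) and -0.0257 (without the third TG Aire+/-). Without the second Aire-/- replicate Ccl25 was at -0.0373, Foxn1 at 0.0895 and Ly75 at 0.0396. Where a sign changed when 1 library was left out, the estimates over all such fits ran for TG Aire-/- against TG Aire+/- from -2.17 (Prss16), -1.88 (Ccl25) and -0.181 (Cxcl12) to the values above. Against Aire-/- they ran from -1.83 (Ccl25), -1.10 (Ctsl), -0.415 (Il7), -0.223 (Cxcl12) and -0.194 (Dll4). For TG Aire+/- against Aire-/- the other ends were 0.172 (Ccl25), 0.0861 (Ctsl), 0.134 (Cxcl12), 0.231 (Il7), -0.213 (Foxn1) and -1.94 (Ly75). A filter of 5 RPKM removed Dll4, which then has no value. The 3 libraries a group and 1 that stands apart limit every comparison.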

Other observations

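Outside the thymus the genes most specific to cortical epithelium were near 0. Psmb11 was listed at 0 in all 6 livers of the second batch (4 livers with no batch number were not analysed here), and Foxn1 in 5 of 6, with 0.0403 RPKM in 1 library labelled TG Aire-/-. Cxcl12, which liver stroma also makes, was at 48.5 and 48.1 RPKM in the Aire+/+ livers, at 24.8 and 20.1 in TG Aire-/- and at 26.7 and 26.8 in CD8-depleted TG Aire-/- livers.

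In CD8+ T cells sorted from liver there was 1 library per genotype and so no test. Prss16 was lowest in the Aire-/- library at 0.292 RPKM, with 0.860 for TG Aire+/- and 6.27 for TG Aire-/-. In the same order Ly75 ran the other way at 6.18, 5.14 and 1.92 RPKM, and so did Ctsl at 5.19, 3.80 and 1.76. Epithelial genes were also highest in the Aire-/- library. In that order Krt8 was at 3.82, 0.327 and 0.181 RPKM and Krt18 at 4.93, 0.131 and 1.07. Epcam was at 4.09, 1.19 and 1.36 RPKM. The part of other liver cells in these values was not tested. Ccl25 was at 1.09, 0.800 and 1.39 RPKM, and Foxn1 was listed at 0 in all 3.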
